A study of Mus musculus with 20 samples.

Results

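The genes described here are 9 enzymes of NAD synthesis (Afmid, Kmo, Kynu, Haao, Acmsd, Qprt, Nadsyn1, Nmnat1 and Nampt) and Ppargc1a, which encodes the transcriptional coactivator PGC-1alpha. They were taken by symbol from a list of 10 names, chosen with earlier results of these data known. All 10 were found among the 25700 genes of the count files and passed the filter on low counts, which left 15430 genes. The libraries are bulk poly(A) RNA from mice in 4 groups of 5: oxalate mice given alkali therapy, untreated oxalate mice, control mice given alkali therapy, and untreated control mice. The series describes the disease as crystal nephropathy, kidney damage by crystals, and the alkali as bicarbonate supplementation. Strain, sex, age, dose, tissue and time are not given in the labels used here, the titles of both alkali groups carry an unexplained "late", and nothing states that each library came from its own animal. The p-values therefore reflect library-to-library spread, which may be technical. Neither untreated group carries "late", so whatever the word stands for cannot be told apart from alkali here. Libraries are called by the number in their title, and values within a group are given in order of that number: 2, 5, 8, 30 and 33 for alkali-treated oxalate, 3, 12, 32, 39 and 40 for untreated oxalate, 1, 4, 7, 27 and 37 for alkali-treated control, and 9, 13, 19, 26 and 35 for untreated control.

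Cells build NAD, the redox carrier that sirtuins and poly-ADP-ribose polymerases also consume, by several routes. In the de novo route, tryptophan is broken down through kynurenine to quinolinate and then to nicotinic acid mononucleotide, a route used mainly by liver and kidney proximal tubule. In the salvage route, nicotinamide released by NAD consumers is recycled. PGC-1alpha drives mitochondrial gene programmes and has been linked in mouse kidney to NAD synthesis and resistance to tubular injury.

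Total counts ran from 25547840 to 39550689 per library. Kidney markers were present in every library: 10 proximal tubule genes summed to between 5316 and 21376 CPM (reads scaled to library size with TMM, the trimmed mean of M values) and 4 podocyte genes to between 269 and 524 CPM. Liver markers stayed between 94.7 and 264 CPM and skeletal muscle markers at or under 1.03 CPM. In 6 libraries (untreated control 9 and 26, alkali-treated control 1 and 4, untreated oxalate 32 and alkali-treated oxalate 33) the fat cell gene Adipoq exceeded 1 CPM, reaching 35.4 CPM in alkali-treated oxalate library 33, and results are also given without these 6 where that changed a call. Summed over 5 fat cell markers, untreated control library 26 was the highest at 422 CPM, with 226 CPM in alkali-treated oxalate library 33. Oxalate libraries were far from uniform. Untreated oxalate library 40 was the lowest of its group for 8 of the 10 genes, alkali-treated oxalate library 33 the lowest of its group for 9, and alkali-treated oxalate library 2 the highest of its group for 7.

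The genes lie on GRCm38 as follows. Afmid is at chr11:117825924-117839908 (plus strand), Kmo at chr1:175620381-175662116 (plus), Kynu at chr2:43555329-43682715 (plus) and Haao at chr17:83831156-83847963 (minus). Acmsd is at chr1:127729413-127767978 (plus), Qprt at chr7:127107114-127122226 (minus) and Nadsyn1 at chr7:143795584-143822849 (minus). Nmnat1 is at chr4:149467572-149485202 (minus), Nampt at chr12:32819545-32853349 (plus) and Ppargc1a at chr5:51454250-51567726 (minus). Afmid shares exon bases with Gm20708 on the same strand and with Tk1 on the other, and Acmsd with the antisense gene 2900009J06Rik, so their counts carry that uncertainty. The shared bases sum to 1649 against 3539 exon bases for Afmid, and to 94 against 2831 for Acmsd.

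The 250 bases before the RefSeq start (GRCm38.p6) are shown for Ppargc1a and for the final amidation enzyme Nadsyn1, because they stand for the CpG-poor and CpG-rich starts among these genes. Each runs 5′ to 3′ on the gene's strand, with every CpG in capitals. The windows are chr5:51567726-51567975 (minus) for Ppargc1a and chr7:143822853-143823102 (minus) for Nadsyn1.

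Ppargc1a: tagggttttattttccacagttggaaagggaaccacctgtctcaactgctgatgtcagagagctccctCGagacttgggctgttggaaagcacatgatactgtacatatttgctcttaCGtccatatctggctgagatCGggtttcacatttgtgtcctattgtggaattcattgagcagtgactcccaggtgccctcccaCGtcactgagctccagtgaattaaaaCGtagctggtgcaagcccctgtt

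Nadsyn1: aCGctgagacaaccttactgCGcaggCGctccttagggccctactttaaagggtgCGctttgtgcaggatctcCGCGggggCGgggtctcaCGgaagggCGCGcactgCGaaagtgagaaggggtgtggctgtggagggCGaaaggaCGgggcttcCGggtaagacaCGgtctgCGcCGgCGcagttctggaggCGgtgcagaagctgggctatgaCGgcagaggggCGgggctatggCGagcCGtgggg

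The Ppargc1a window holds 5 CpG and the Nadsyn1 window 23. Windows of 8 of the 10 genes are described here, without those of Kynu and Acmsd. Kmo had 5 CpG, Haao 6, Qprt 6, Afmid 15 and Nampt 27, and the pair of windows for Nmnat1 had 23 and 24. The median over 32851 such mouse windows was 6 CpG, and 17.9% held at least 20, as did those of Nadsyn1, Nmnat1 and Nampt. The motif search covered 5 motifs on both strands from 250 bases before to 50 after the start. They were AAGGTCA (oestrogen related receptor), CAAAGTCCA (HNF4A), GTTAAT (part of the HNF1 site), CACGTG (E-box) and TGACGTCA (cyclic AMP response element, added after the data were seen), present in 4.72%, 0.475%, 7.10%, 7.15% and 1.79% of windows. There was 1 match, GTTAAT on the opposite strand 41 bases before the RefSeq start of Haao. The other windows described do not hold these letters. In the GENCODE annotation all 250 bases of the Haao window, the match included, lie in exons of Haao itself. The Kmo and Nampt windows lie wholly inside those genes, with 197 and 0 bases in their exons. The Qprt window has 197 bases in exons of Qprt. These windows lie before the RefSeq start used, but not wholly before the GENCODE start of the gene.

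Per kilobase of exon, Acmsd had the highest level of the 10 genes in every group and Kynu the lowest. Acmsd averaged 47.2 ± 11.04 CPM per kb in alkali-treated oxalate, 33.7 ± 8.82 in untreated oxalate, 60.5 ± 6.63 in alkali-treated control and 53.3 ± 9.69 in untreated control libraries (SD, n = 5 each). Kynu averaged 1.4996 ± 0.675, 1.37 ± 0.862, 1.10 ± 0.461 and 0.891 ± 0.301 CPM per kb in the same 4 groups. In untreated controls the order was Acmsd, Haao, Kmo, Qprt, Afmid, Nampt, Ppargc1a, Nadsyn1, Nmnat1 and Kynu. Neighbours among the first 6 overlapped, and Ppargc1a (13.1 ± 1.07 CPM per kb), Nadsyn1 (10.7 ± 0.824), Nmnat1 (7.14 ± 0.184) and Kynu were each clear of the gene above. In untreated oxalate libraries the order was Acmsd, Haao, Nampt, Qprt, Kmo, Afmid, Ppargc1a, Nadsyn1, Nmnat1 and Kynu, with every neighbouring pair overlapping except Nmnat1 and Kynu.

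The first comparison asked what crystal nephropathy changed without alkali. Of the 10 genes, 9 were lower in untreated oxalate than in untreated control libraries, each without overlap between the groups, and Kynu was not called. The background is wide in this comparison: 23.1% of all tested genes were called lower and 15.4% were lower without overlap, and 49.4% were called in either direction. The median log2 change of the 10 genes was -0.58, against 0.00 over all tested genes. Calls are at an adjusted p under 0.05 from edgeR's quasi-likelihood test with Benjamini-Hochberg adjustment over all tested genes, and errors on log2 fold changes are SE. Beside these changes, the 10 proximal tubule markers were all called lower (median -0.80) and summed to 5316 to 13951 CPM in untreated oxalate against 18437 to 21376 CPM in untreated control libraries. The 10 macrophage and monocyte markers were all called higher, summing to 703 to 2829 CPM in untreated oxalate against 126 to 164 CPM in untreated control libraries. All 5 fibroblast (median 2.64), all 5 T and NK cell, all 4 podocyte and 1 of 5 endothelial markers were called higher too. Over all tested genes 26.4% were called higher. The part of these shifts in the results below was not tested, and in bulk RNA fewer cells of a type and less RNA per cell cannot be told apart.

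Among the 10 genes, Afmid and Kmo, early kynurenine enzymes, had the largest changes. Afmid, the formamidase that releases kynurenine, had 51.4, 51.2, 73.1, 53.0 and 31.1 CPM in untreated oxalate libraries, against 114, 124, 107, 103 and 116 CPM in untreated control libraries. Kmo, the mitochondrial enzyme that hydroxylates kynurenine, had 89.7, 75.6, 131, 111 and 51.7 CPM in untreated oxalate libraries, against 197, 241, 177, 173 and 201 CPM in untreated control libraries. For both genes library 40 was the lowest and library 32 the highest of the oxalate group, and even library 32 lay under every control. The log2 changes were -1.12 ± 0.19 for Afmid (adjusted p = 0.000105) and -1.11 ± 0.22 for Kmo (adjusted p = 0.000437). In means, Afmid stood at 46.1% and Kmo at 46.3% of the untreated control level. Haao, which opens the ring of hydroxyanthranilate, had 122, 117, 170.5, 137 and 57.8 CPM in untreated oxalate libraries, against 218, 205, 219, 220.2 and 239 CPM in untreated control libraries. Its highest oxalate value was 2.95 times its lowest, while the control values spanned 1.17 times. The log2 change of Haao was -0.87 ± 0.24 (adjusted p = 0.00618).

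Kynu, kynureninase, cleaves kynurenine and its hydroxylated form and stands between Kmo and Haao in the route. It had 10.95, 3.81, 6.03, 16.6 and 4.87 CPM in untreated oxalate libraries, against 4.22, 7.49, 7.41, 3.52 and 4.75 CPM in untreated control libraries. Libraries 3 and 39 were above all controls and the other 3 were inside their range. Its log2 change was 0.62 ± 0.41 (adjusted p = 0.214) and 0.22 without untreated oxalate library 39.

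At the branch after Haao, Acmsd, a decarboxylase, diverts the product of Haao away from quinolinate, while Qprt turns quinolinate into the first mononucleotide. Acmsd had 106, 75.4, 116, 117 and 62.2 CPM in untreated oxalate libraries, against 127, 165, 191, 128 and 143 CPM in untreated control libraries. Qprt had 64.1, 60.2, 70.2, 61.7 and 35.1 CPM in untreated oxalate libraries, against 84.5, 72.9, 90.3, 85.4 and 101 CPM in untreated control libraries. The gap between the groups was narrow for both genes, with Qprt at 70.2 CPM in the highest oxalate library and 72.9 CPM in the lowest control. Acmsd changed by -0.66 ± 0.18 (adjusted p = 0.00405) and Qprt by -0.57 ± 0.14 (adjusted p = 0.0018) on the log2 scale. The ratio of Qprt to Acmsd counts, which needs no library scaling, averaged 0.569 ± 0.0997 in alkali-treated oxalate, 0.620 ± 0.105 in untreated oxalate, 0.553 ± 0.0615 in alkali-treated control and 0.590 ± 0.123 in untreated control libraries (SD, n = 5 each). The ranges of all 4 groups overlapped.

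The enzymes after quinolinate and the salvage enzyme Nampt also fell. Nmnat1, the nuclear adenylyltransferase shared by both routes, had 15.6, 14.8, 19.6, 16.2 and 10.8 CPM in untreated oxalate libraries, against 21.7, 21.9, 22.1, 20.7 and 21.99 CPM in untreated control libraries. Nadsyn1, which amidates the nicotinic acid dinucleotide to NAD, had 21.8, 24.9, 26.6, 26.8 and 17.9 CPM in untreated oxalate libraries, against 38.5, 35.7, 32.7, 37.03 and 32.2 CPM in untreated control libraries. The control values of Nmnat1 were tight (coefficient of variation 2.58%) and those of the oxalate group were not (20.4%). The log2 changes were -0.49 ± 0.11 for Nmnat1 (adjusted p = 0.00107) and -0.58 ± 0.10 for Nadsyn1 (adjusted p = 0.000112). Nampt, the rate-limiting enzyme of nicotinamide salvage, had 107, 107, 120.5, 122 and 105 CPM in untreated oxalate libraries, against 152, 183, 141, 141 and 141 CPM in untreated control libraries. Its oxalate values were the most uniform of the 10 genes (coefficient of variation 7.47%). The log2 change of Nampt was -0.43 ± 0.09 (adjusted p = 0.000894).

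Ppargc1a had 63.1, 50.3, 69.1, 69.8 and 56.7 CPM in untreated oxalate libraries, against 81.5, 98.4, 84.1, 81.7 and 84.8 CPM in untreated control libraries. Library 12 was the lowest for this gene, and library 40, lowest for most of the enzymes, was second from the bottom. The mean was 71.8% of that in untreated controls, a log2 change of -0.48 ± 0.11 (adjusted p = 0.00125).

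The size of these falls depends on how libraries are scaled. With total counts in place of TMM the median change of all tested genes moved from 0.00 to 0.30, and calls over all genes moved from 4067 higher and 3563 lower to 7498 higher and 1308 lower. Of the 10 genes 7 were then called lower, and the calls of Ppargc1a (-0.18, adjusted p = 0.0672) and Nampt (-0.13, adjusted p = 0.12) were lost. Of the 10 proximal tubule markers 6 were called lower with that scaling (median -0.53). The number called lower stayed at 9 without any 1 of the 10 libraries and without the 6 libraries with fat cell signal.

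**Figure D1:**
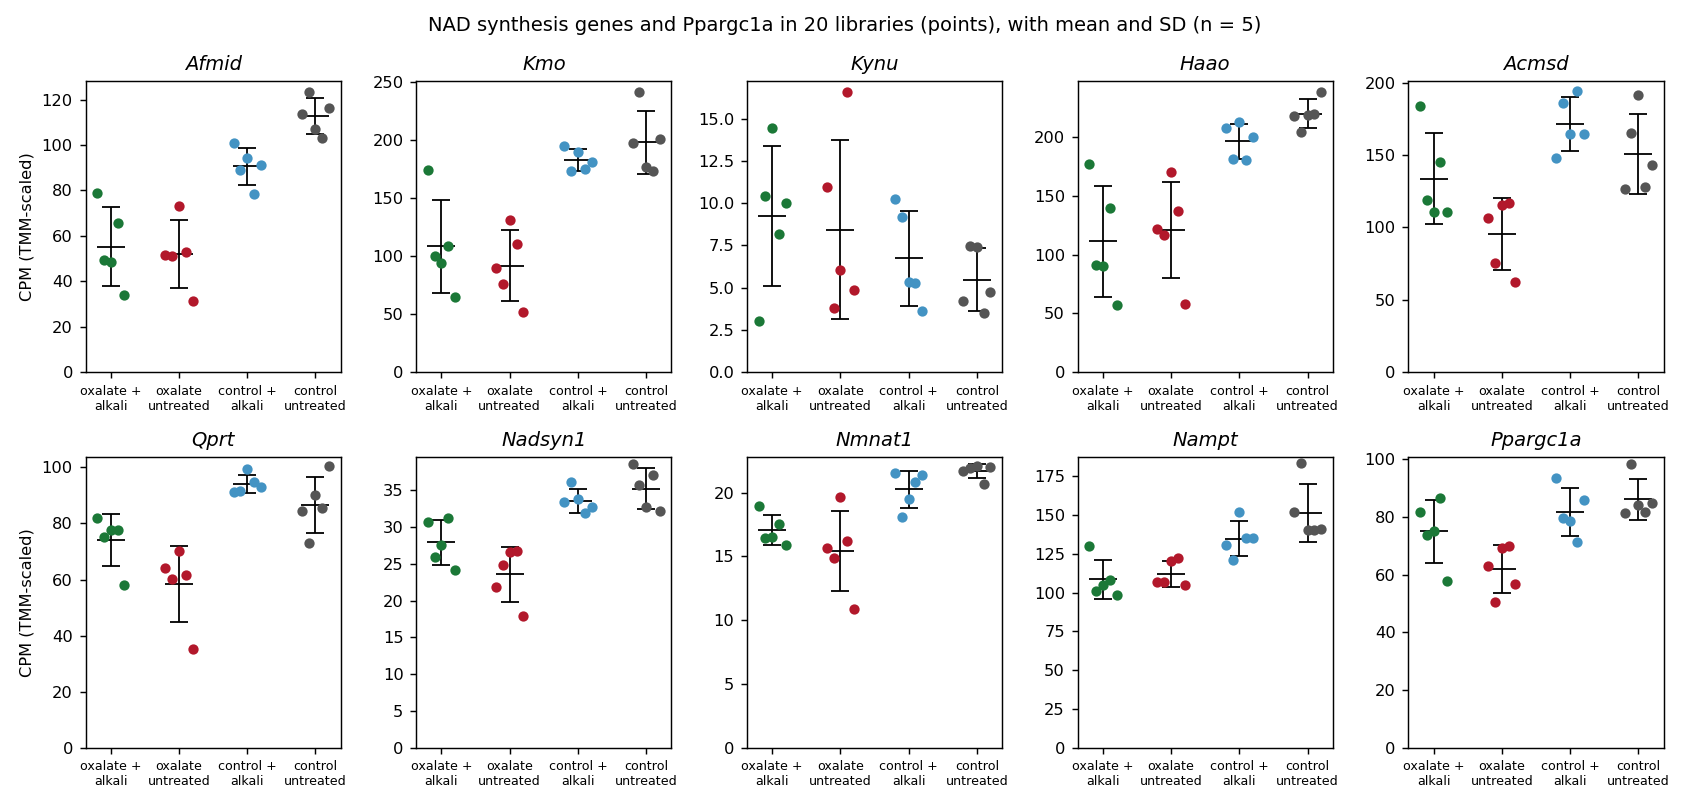
CPM (TMM-scaled) of each gene in the 20 libraries; points are libraries, horizontal marks are group means and bars SD (n = 5). Kmo, Afmid and Haao in both oxalate groups spread widely, from about the control level in alkali-treated oxalate library 2 for Kmo (174 CPM) down to 51.7 CPM in untreated oxalate library 40.

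The genes differed in how far they followed the proximal tubule markers. As a ratio to the summed markers, which is free of library scaling, Haao (log2 difference of oxalate minus control 0.10), Kmo (-0.12) and Afmid (-0.12) lay in overlapping ranges in untreated oxalate and untreated control libraries, while the marker sum itself differed by -1.05. Acmsd (0.36) and Nadsyn1 (0.46) overlapped too. Ppargc1a (0.56), Qprt (0.44), Nampt (0.62), Nmnat1 (0.53) and Kynu (1.52) were higher relative to the markers in untreated oxalate libraries without overlap, as were 77.8% of all tested genes. A ratio shows unequal change and not that either side was constant.

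**Figure D2:**
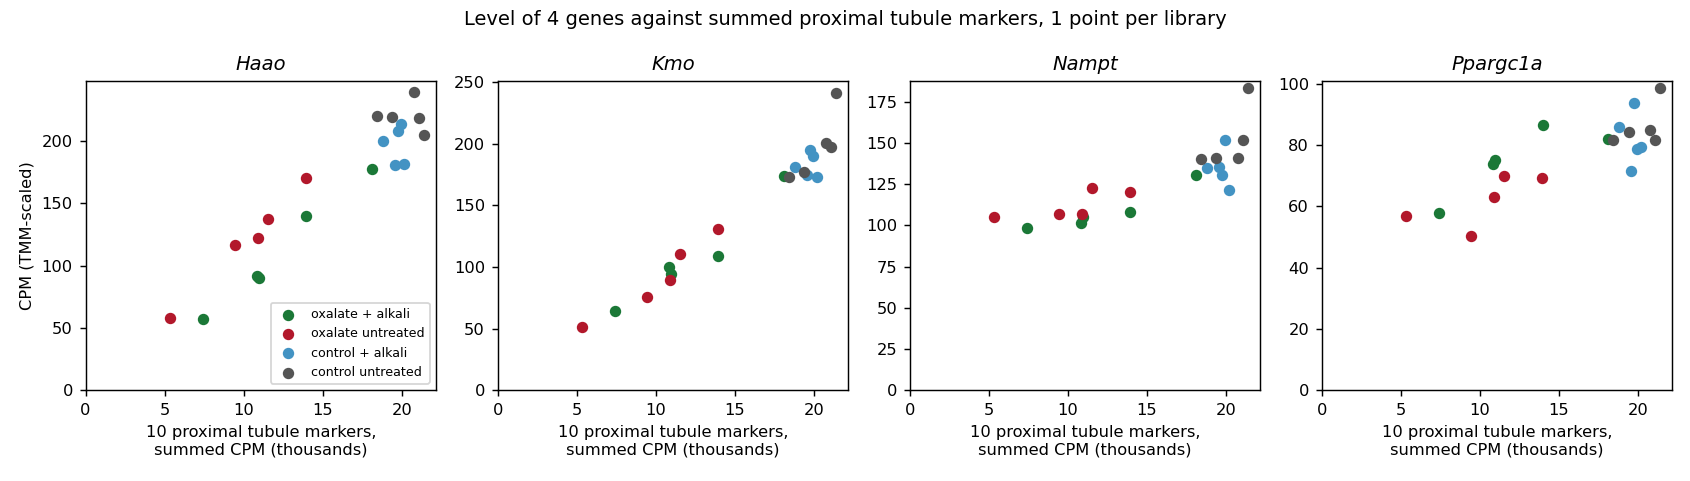
CPM of Haao, Kmo, Nampt and Ppargc1a against the summed CPM of 10 proximal tubule markers, 1 point per library, coloured by group. Haao and Kmo fall together with the markers toward untreated oxalate library 40 (marker sum 5316 CPM), while Nampt keeps 105 CPM there.

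The second comparison asked what differed between oxalate mice with and without alkali. None of the 10 genes was called by edgeR's quasi-likelihood test or by DESeq2, 4 had an unadjusted p under 0.05 in edgeR (3156 of 15430 tested genes, 20.5%, had one), and all 10 overlapped between the groups (3.52% of all tested genes did not). Over all tested genes 4.08% were called, 1.76% higher. The median log2 change of the 10 genes was 0.19, against 0.01 over all genes, and 8 of 10 changes were above 0, as were 51.2% of all tested genes. The summed macrophage and monocyte markers were 281 to 907 CPM in alkali-treated and 703 to 2829 CPM in untreated oxalate libraries. Of these 10 markers 2 were called lower, and the part of that shift in the results was not tested.

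The 4 genes with the smallest p were Acmsd, Ppargc1a, Qprt and Nadsyn1. Acmsd had 184, 119, 111, 145 and 110.3 CPM in alkali-treated oxalate libraries, against 106, 75.4, 116, 117 and 62.2 CPM in untreated ones, a log2 difference of 0.49 ± 0.17 (adjusted p = 0.114). Ppargc1a had 81.8, 73.9, 75.0, 86.6 and 57.8 CPM in alkali-treated oxalate libraries, against 63.1, 50.3, 69.1, 69.8 and 56.7 CPM in untreated ones, a difference of 0.28 ± 0.11 (adjusted p = 0.141). For Ppargc1a 4 of the 5 alkali-treated values lay above every untreated value, and library 33 lay inside the untreated range. Without that library the difference was 0.36 and was called (adjusted p = 0.038), and without the 6 libraries with fat cell signal, of which it is one, it was 0.42 (adjusted p = 0.0308). Qprt had 82.0, 75.1, 77.7, 77.6 and 58.2 CPM in alkali-treated oxalate libraries, against 64.1, 60.2, 70.2, 61.7 and 35.1 CPM in untreated ones, a difference of 0.35 ± 0.14 (adjusted p = 0.146). Nadsyn1 had 30.7, 25.99, 27.5, 31.2 and 24.1 CPM in alkali-treated oxalate libraries, against 21.8, 24.9, 26.6, 26.8 and 17.9 CPM in untreated ones, a difference of 0.24 ± 0.10 (adjusted p = 0.167). For Qprt and Nadsyn1, as for Ppargc1a, library 33 was the lowest of the alkali-treated group. Relative to the summed proximal tubule markers, the log2 differences were 0.01 for Ppargc1a, -0.02 for Nadsyn1, 0.11 for Qprt and 0.24 for Acmsd. Each had overlapping values, and the marker sum itself differed by 0.27. The part of that shift in the differences above was not tested.

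Haao and Nampt had differences below 0 with all libraries, neither called. Haao had 177, 91.3, 90.1, 140.2 and 57.5 CPM in alkali-treated oxalate libraries, against 122, 117, 170.5, 137 and 57.8 CPM in untreated ones, a log2 difference of -0.12 ± 0.24. It was 0.046 without alkali-treated library 33, 0.050 without untreated library 32 and 0.22 without the libraries with Adipoq above 1 CPM. Nampt averaged 109 ± 12.7 CPM in alkali-treated and 112 ± 8.39 CPM in untreated oxalate libraries (SD, n = 5 each), a difference of -0.05 that was 0.026 without the Adipoq libraries. Kmo (0.24), Nmnat1 (0.15), Kynu (0.13) and Afmid (0.09) had small positive differences, each with an adjusted p above the threshold, and the lowest values without 1 library were -0.087 for Kynu and -0.071 for Afmid. Relative to the summed proximal tubule markers, Haao was lower in alkali-treated than in untreated oxalate libraries without overlap (log2 difference -0.41), as were 1.02% of all tested genes; the marker sum was 7405 to 18115 CPM in alkali-treated and 5316 to 13951 CPM in untreated oxalate libraries. The ratio of Nampt to Qprt counts averaged 1.48 ± 0.155 in alkali-treated oxalate, 2.03 ± 0.554 in untreated oxalate, 1.43 ± 0.0740 in alkali-treated control and 1.78 ± 0.433 in untreated control libraries (SD, n = 5 each). Single libraries set the upper ends, 2.99 in untreated oxalate library 40 and 2.52 in untreated control library 13.

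**Figure D3:**
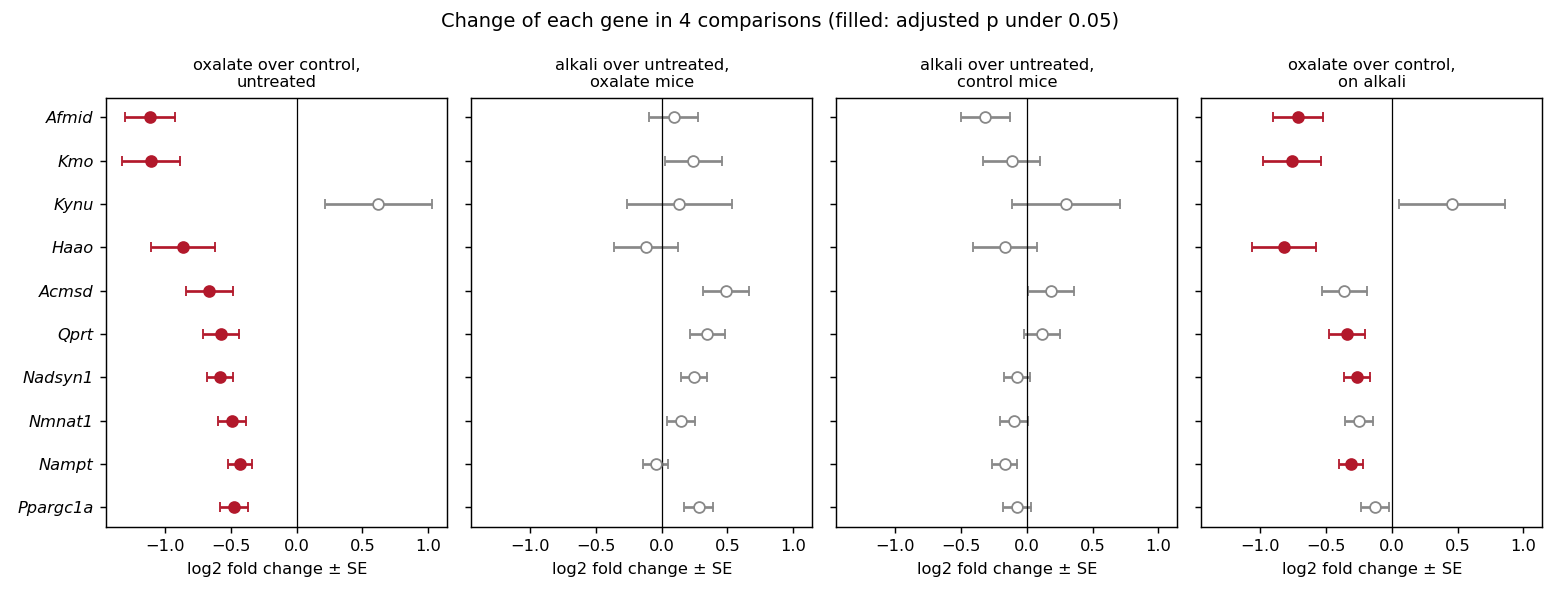
Log2 fold change with SE of each gene in 4 comparisons; filled points have an adjusted p under 0.05 in edgeR's quasi-likelihood test. In the plot 9 genes are filled for oxalate over control without alkali, 6 for oxalate over control on alkali, and 0 for either alkali comparison.

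In control mice alkali left the 10 genes without a call. None had an unadjusted p under 0.05 in edgeR and none was called by DESeq2, in a comparison where edgeR called 0 of all tested genes (389 at an unadjusted p under 0.05) and DESeq2 called 3 genes higher. Afmid alone separated the groups: 101, 89.0, 94.1, 78.4 and 91.1 CPM in alkali-treated control libraries, against 114, 124, 107, 103 and 116 CPM in untreated control libraries. That difference was -0.31 ± 0.19 on the log2 scale (adjusted p = 1 in edgeR), and 0.467% of all tested genes were lower without overlap. The model shares 1 estimate of spread per gene over all 4 groups. For Afmid the coefficient of variation was 28.6% in untreated and 31.3% in alkali-treated oxalate libraries. It was 7.12% in untreated and 9.05% in alkali-treated control libraries. The lack of a call here therefore does not show that alkali had no effect in control mice. None of the 10 genes was called under any alternative either. Relative to the summed proximal tubule markers Afmid was also lower without overlap (log2 difference -0.28; 0.253% of all tested genes were). Acmsd (0.18 ± 0.17) and Ppargc1a (-0.07 ± 0.11) had overlapping values.

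The interaction, the alkali difference in oxalate mice minus that in control mice, was not called for any of the 10 genes by edgeR or DESeq2, and 2 had an unadjusted p under 0.05 in edgeR. These were Ppargc1a (0.35 ± 0.15, adjusted p = 0.498) and Nadsyn1 (0.31 ± 0.14, adjusted p = 0.51). Over all tested genes edgeR called 0 for the interaction (1429 at an unadjusted p under 0.05) and DESeq2 called 8 higher and 7 lower. A different response to alkali in oxalate and control mice was therefore not shown for these genes.

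The last comparison asked what remained between oxalate and control mice when both had alkali. Of the 10 genes 6 were called lower in alkali-treated oxalate libraries (17.1% of all tested genes were), and Haao, Nadsyn1 and Qprt were lower without overlap (5.51% of all tested genes were). In the same comparison 7 of 10 proximal tubule markers were called lower, and 9 of 10 macrophage and monocyte, 5 of 5 fibroblast and 5 of 5 endothelial markers higher. All 5 T and NK cell and all 4 podocyte markers were called higher as well. Over all 15430 tested genes 3604 were called higher. The summed proximal tubule markers were 7405 to 18115 CPM in alkali-treated oxalate and 18801 to 20172 CPM in alkali-treated control libraries. The summed macrophage and monocyte markers were 281 to 907 CPM in alkali-treated oxalate and 122 to 183 CPM in alkali-treated control libraries, and their part in the result was not tested. Haao averaged 111 ± 47.3 CPM in alkali-treated oxalate and 197 ± 15.0 CPM in alkali-treated control libraries (SD, n = 5 each), a log2 change of -0.82 ± 0.24 (adjusted p = 0.0132). Kmo changed by -0.76 ± 0.22 (adjusted p = 0.0116) and Afmid by -0.71 ± 0.19 (adjusted p = 0.00746). In both, library 2 of the oxalate group overlapped the controls, with Kmo at 174 CPM in that library and 173 CPM in alkali-treated control library 4. Nampt changed less (-0.31 ± 0.09) but had an adjusted p close to that of Haao (0.0138). Nadsyn1 (-0.27 ± 0.10, adjusted p = 0.0375) and Qprt (-0.34 ± 0.14, adjusted p = 0.0493) were called by smaller margins. The other 4 were not called: Acmsd (-0.36 ± 0.17, adjusted p = 0.103), Nmnat1 (-0.25 ± 0.11, adjusted p = 0.0703), Ppargc1a (-0.12 ± 0.11, adjusted p = 0.361) and Kynu (0.46 ± 0.41, adjusted p = 0.37).

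Relative to the summed proximal tubule markers, which differed by -0.74 here, Acmsd was higher in alkali-treated oxalate libraries without overlap (0.36, as were 36.6% of all tested genes). On this measure Haao (-0.18), Kmo (-0.09) and Afmid (-0.03) overlapped between the groups. Qprt (0.39), Nampt (0.43), Nadsyn1 (0.47), Nmnat1 (0.49), Ppargc1a (0.61) and Kynu (1.14) also overlapped. Ppargc1a averaged 75.0 ± 10.9 CPM in alkali-treated oxalate and 81.8 ± 8.36 CPM in alkali-treated control libraries (SD, n = 5 each), and with total-count scaling its difference was 0.08. Total-count scaling left 3 of the 10 genes called in this comparison (Haao, Kmo and Afmid), with all genes at 5645 higher and 953 lower in place of 3604 and 2633. Leaving out the 6 libraries with fat cell signal left 2 (Afmid and Nampt), with Haao (adjusted p = 0.0651), Kmo (adjusted p = 0.0605), Qprt (adjusted p = 0.15) and Nadsyn1 (adjusted p = 0.182) lost. Without single libraries the number ran from 4 to 8. The Qprt call was lost without any 1 of the 10 libraries except alkali-treated oxalate library 2, and the Nadsyn1 call without alkali-treated oxalate library 5, 8 or 33 or alkali-treated control library 1, 4, 7 or 37. Without alkali-treated oxalate library 2 the number was 8, with Acmsd (-0.50, adjusted p = 0.0186) and Nmnat1 (-0.29, adjusted p = 0.0399) called.

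The other genes of the pathway, from lists chosen with earlier results known, gave the surroundings of these changes. Of the other kynurenine branch genes, 5 of 7 were tested and all 5 were lower in untreated oxalate than in untreated control libraries (median log2 change -1.06). In this comparison 23.1% of all tested genes were called lower. Ido1 and Tdo2, which start the route from tryptophan, were too low to test, with at most 12 and 3 counts in any library. Aadat, a kynurenine aminotransferase, averaged 135 ± 54.4 CPM in untreated oxalate and 483 ± 44.0 CPM in untreated control libraries (SD, n = 5 each), a change of -1.83 ± 0.25 (adjusted p = 1.28e-05). This was a larger fall than that of any of the 10 genes. Kyat3, another aminotransferase (-0.94 ± 0.14), Aldh8a1, which removes a kynurenine branch intermediate (-1.06 ± 0.20), and Ido2 (-1.06 ± 0.24) also fell.

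Against 23.1% of all tested genes, all 7 that were tested of the 9 other NAD salvage and NAD kinase genes were lower in untreated oxalate libraries (median -0.52). These included the mitochondrial adenylyltransferase Nmnat3 (-0.52 ± 0.09), the mitochondrial NAD carrier Slc25a51 (-0.58 ± 0.11), the nicotinamide riboside kinase Nmrk1 (-0.83 ± 0.17) and the nucleoside phosphorylase Pnp (-0.37 ± 0.08, and -0.08 with adjusted p = 0.233 under total-count scaling). With that scaling 4 of the 7 were called lower, as were 1308 of all 15430 tested genes. NAD consuming genes moved both ways, 7 higher and 4 lower of 18 (median 0.14), against 26.4% higher and 23.1% lower over all tested genes. With total-count scaling 10 of the 18 were higher and 2 lower, against 7498 higher and 1308 lower of all 15430 tested genes. Parp14, an ADP-ribosyltransferase of the interferon response, was higher at 46.1 ± 9.90 CPM in untreated oxalate against 17.8 ± 2.06 CPM in untreated control libraries (1.37 ± 0.18), and Parp9 was higher by 0.51 ± 0.11. Sirt3, the main mitochondrial deacetylase (-0.75 ± 0.15), and Nnt, the mitochondrial transhydrogenase (-0.53 ± 0.12), were lower. Nnt and Nnmt are in this list although neither enzyme uses up NAD, so its counts are not of NAD consumers alone.

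Among tryptophan and niacin transporters 1 of 8 was higher and 3 were lower (median -0.35), a share of called genes near the 49.4% over all tested genes. The higher one was Slc7a5, a large neutral amino acid carrier at 6.29 ± 1.62 CPM in untreated oxalate and 2.34 ± 0.279 CPM in untreated control libraries (1.43 ± 0.23). The lower ones were Slc6a19, the apical carrier that takes tryptophan back from the filtrate (-0.88 ± 0.18), Slc22a13, a nicotinate carrier (-0.88 ± 0.19), and Slc5a8, a monocarboxylate and nicotinate carrier (-1.17 ± 0.25). In the PGC-1 family, partner and mitochondrial transcription list 11 of 17 were lower and 1 higher (median -0.42). Over all tested genes 23.1% were lower and 26.4% higher. With total-count scaling 4 of the 17 were lower and 3 higher, against 1308 lower and 7498 higher of all 15430 tested genes. Esrrb, a nuclear receptor partner of PGC-1alpha, fell by 0.66 on the log2 scale and kept its call under that scaling. The calls of its relative Esrrg (-0.53 ± 0.12), of Gabpa (-0.42 ± 0.09) and of the mitochondrial helicase gene Twnk (-0.46 ± 0.11) did not hold with total counts (adjusted p = 0.0686, 0.193 and 0.0699).

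With alkali in oxalate mice 1 gene was called higher in each of 3 of these lists, against 1.76% of all tested genes. Slc6a19 averaged 368 ± 43.4 CPM in alkali-treated and 218 ± 70.2 CPM in untreated oxalate libraries (SD, n = 5 each), a log2 change of 0.75 ± 0.18 (adjusted p = 0.0231). Its values did not overlap between the groups, as for 3.52% of all tested genes. Aadat averaged 259 ± 112 CPM in alkali-treated and 135 ± 54.4 CPM in untreated oxalate libraries, with overlapping values (0.94 ± 0.25, adjusted p = 0.0388). Esrrb changed by 0.54 ± 0.15 (adjusted p = 0.0438). All 3 calls were lost when the oxalate libraries were fitted without the controls (adjusted p = 0.173 for Slc6a19, 0.234 for Aadat and 0.126 for Esrrb). Single libraries mattered as well. Removing alkali-treated library 30 (adjusted p = 0.0532) or untreated library 12 (adjusted p = 0.0569) took the Slc6a19 call away. For Aadat this held for alkali-treated libraries 2 and 30 and for untreated libraries 3, 12 and 40 (0.077 to 0.106), and for Esrrb for alkali-treated libraries 2, 5, 8 and 30 and untreated libraries 12 and 40 (0.053 to 0.122). Esrrb was not called with total-count scaling either (adjusted p = 0.0671), and without the filter on low counts neither Aadat (adjusted p = 0.0511) nor Esrrb (adjusted p = 0.0517) was called. Without alkali-treated oxalate library 2 the change of Aadat was 0.64. None of the salvage and NAD consuming genes was called by edgeR or DESeq2 (in edgeR 1 of 7 and 2 of 18 had an unadjusted p under 0.05, as did 20.5% of all tested genes).

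**Figure D4:**
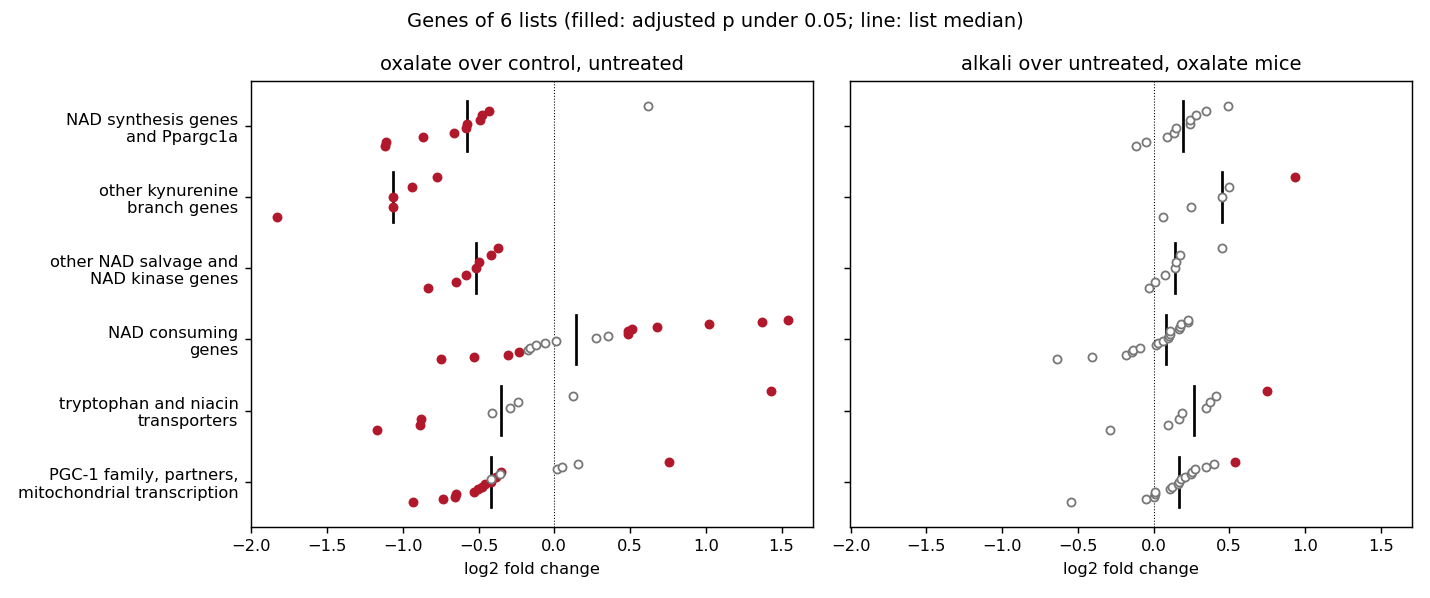
Log2 fold change of each tested gene in the 10 described genes and 5 further lists, for oxalate over control without alkali and for alkali over untreated in oxalate mice; filled points have an adjusted p under 0.05 and lines are list medians. The kynurenine and salvage lists lie wholly below 0 without alkali, and with alkali 3 points are filled (Aadat, Slc6a19 and Esrrb).

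The genes nearest in pattern were found by the mean absolute difference of centred log2 CPM over the 20 libraries, among 12820 genes. For Ppargc1a they were Aftph (0.08), Ap1g1 (0.08), Phldb2 (0.08), Pacsin2 (0.09) and Lmo7 (0.09). Of the other 9 genes described here the nearest to it was Nmnat1 at rank 824 (0.14), and the median over all genes compared was 0.24. Haao lay nearest to Slc22a6, the organic anion transporter of the proximal tubule (0.09), then Pcx and Pepd (0.11 each), and Kmo to Aass (0.08), a lysine breakdown gene. Afmid lay nearest to Gm20708 (0.04), with which it shares exon bases, and then to Upb1 (0.09). The nearest gene was Slc2a12 for Acmsd (0.12), Ndufv3 for Qprt (0.08), Iqsec2 for Nadsyn1 (0.07), Gdi2 for Nampt (0.06) and Afg1l for Nmnat1 (0.06). Kynu had no close match, with Acot3 nearest at 0.42.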

How the data were processed

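Per the labels, 20 mouse libraries were prepared from poly(A) RNA with a stranded TruSeq kit. The authors deposited raw counts of reads per gene for 25700 mouse identifiers. Tools named in the submitters' processing notes are STAR 2.7.1, featureCounts, Trimmomatic, edgeR and bcl2fastq 2.19. The notes name GRCh38.p5, a human build, although the identifiers are mouse, and the strand setting of the counting is not given in the sources used here. Symbols came from a gene name table (25587 matched, 113 not), and coordinates and exon lengths from GENCODE M21 (GRCm38).

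Genes were kept by filterByExpr (minimum count 10), leaving 15430 and removing 10270. Libraries were scaled by TMM, and 1 robust quasi-likelihood model of 4 group means was fitted to all 20 libraries in edgeR 4.0.16 (R 4.3.3), with 5 comparisons and Benjamini-Hochberg adjustment over all tested genes. The SE is the log2 fold change over the square root of F. The common biological coefficient of variation was 0.200. DESeq2 1.42.0, other scalings, no filter, fits of the compared groups alone and fits without single libraries or the 6 libraries with Adipoq above 1 CPM were alternatives. Libraries of a group differed beyond counting noise (lowest chi-square per degree of freedom 9.54). The code was tested on simulated data. Log2 CPM for pattern likeness used a prior count of 2 and genes with an average of at least 1.

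The members and lists were chosen with earlier results of these data known. The text names all 10 members, up to 4 genes per list with the smallest p without alkali, and the list genes called with alkali in oxalate mice. The start window of Acmsd is not reported here.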

Additional observations from a re-analysis of the deposited data

Results flagged for a closer look

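In 5 of 40 groups of 5 libraries tested, 1 library stood far from the others by Dixon's gap criterion, which chance meets in about 1 in 20 groups. Untreated control library 13 was high for Ppargc1a (98.4 CPM) and for Nampt (183 CPM). Qprt was low in alkali-treated oxalate library 33 (58.2 CPM) and in untreated oxalate library 40 (35.1 CPM). Nmnat1 was low in untreated control library 26 (20.7 CPM), in a group whose values spanned 1.07 times.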

How the results depend on the processing

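Without alkali, the 9 lower calls among the 10 genes held under every alternative except total-count scaling (7), which also moved all genes to 7498 higher and 1308 lower. For alkali in oxalate mice, all genes called higher numbered 15 with only the compared groups fitted, 467 without the Adipoq libraries and 486 with DESeq2, and those called lower 218 without the filter on low counts, 14, 796 and 712 under the same 3 settings; 1 of the 10 genes (Ppargc1a) was called without the Adipoq libraries. DESeq2 called 3 genes higher for alkali in control mice. For oxalate on alkali, 3 of the 10 genes were called with total counts (5645 higher and 953 lower over all genes) and 2 without the Adipoq libraries (2263 and 956). The interaction gave 1 higher without the Adipoq libraries, and 8 higher and 7 lower with DESeq2.

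Leaving out 1 library at a time gave 3332 to 4144 higher and 3114 to 4351 lower calls without alkali, 93 to 442 and 92 to 718 for alkali in oxalate mice (0 to 1 of the 10 genes higher), 0 to 1 higher for alkali in control mice, 2842 to 4293 and 1540 to 3634 on alkali (4 to 8 of the 10 genes lower), and 0 to 2 and 0 to 1 for the interaction.

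Directions turned for uncalled changes alone. For alkali in oxalate mice without 1 library, Haao ran from -0.35 to 0.050, Kynu from -0.087 to 0.53 and Afmid from -0.071 to 0.26, and without the Adipoq libraries Haao was 0.22 and Nampt 0.026. For the interaction without 1 library, Haao ran from -0.19 to 0.22 and Kynu from -0.38 to 0.23, Haao was -0.052 with total counts and Kynu 0.49 without the Adipoq libraries. Kynu for alkali in control mice was -0.47 without the Adipoq libraries, and Ppargc1a for oxalate on alkali was 0.075 with total counts. The cause was not tested. On alkali, the calls of Nadsyn1 and Qprt were lost under most settings that left out a library. No paired analysis was possible because the groups compared share no replicate numbers. Kynu rested on 88 to 554 counts in a library.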
